A study of Mus musculus with 8 samples.

Results

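The 50 genes described here encode core and regulatory proteins of the mRNA splicing machinery, out of 11756 genes in the expression table. They were taken by gene symbol alone: 9 Srsf genes, 20 Hnrnp genes, 11 Snrp genes, and 10 genes of the Sf3a and Sf3b groups with Sf1. The rule uses no measured value. Genes with an Snrnp symbol, such as Snrnp70, do not carry the Snrp stem and were counted among the companion genes. RNA came from bone marrow cells of C57BL/6 mice, sorted for the surface protein CD11c. Cells in 4 libraries were loaded on culture day 6 with acLDL (acetylated low density lipoprotein), which macrophage scavenger receptors bind and internalise, for 24 h. Another 4 libraries were labelled as controls and are listed with the same culture day and 24 h. The labels give no age or sex and do not say whether libraries of 1 group share an animal or a culture, so every p-value rests on a spread between libraries that may be technical. The comparison asks whether lipid loading was accompanied by a different level of splicing factor mRNA.

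Splicing removes introns from newly made transcripts. Small nuclear ribonucleoproteins (snRNPs) recognise the intron: U1 binds the start, SF1 and then the U2 snRNP with its SF3a and SF3b complexes bind the branch site. The protein core shared by most snRNPs is a ring of Sm proteins, encoded by Snrpb, Snrpd1, Snrpd2, Snrpd3, Snrpe, Snrpf and Snrpg. SR proteins (Srsf genes) mostly promote the use of exons, and hnRNP proteins coat nascent RNA and often repress exons. In myeloid cells, splicing factors of both kinds are known to shape the isoforms of inflammatory genes. Many of these genes also limit their own mRNA through unproductive splicing.

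The deposited values are normalized signals per gene and library, with totals from 3917426 to 4385051 and a lowest value above 0 of 5. Values under 5 thus cannot be told from 0. Over the whole table, 820, 2178, 2574 and 1310 genes were listed at 0 in acLDL libraries 1 to 4. In controls 1 to 4 the numbers were 1406, 1340, 662 and 1065. An index of short transcripts, the mean log2 deviation of 486 genes with transcripts under 1000 nt, was 1.11 in acLDL library 1 and -1.36, -2.25 and -0.296 in acLDL libraries 2, 3 and 4. In controls 1 to 4 it was 0.062, 0.94, 1.07 and 0.72. Itgax, the gene of CD11c, was at 189 in acLDL library 1 and at 10, 0 and 42.7 in acLDL libraries 2, 3 and 4, and between 81.5 and 195 in controls. Of 13 markers of dendritic cells, 11 were tested, with 2 means higher and 9 lower under acLDL. Their summed level was 9270, 1078, 790 and 2369.5 in acLDL libraries 1 to 4 and 3640 to 7763 in controls. Batf3 and Clec10a were listed at 0 in acLDL libraries 2 and 3. Summed markers of granulocytes, 10 of 12 in the table, were 18601, 8473, 9604.5 and 10701 in acLDL libraries 1 to 4 and 11699 to 20740 in controls. Of these markers 2 had higher and 8 lower means with acLDL, and Camp, Prtn3 and Retnlg were listed at 0 in acLDL libraries 2 and 3. Summed macrophage and monocyte markers, 10 of 10 in the table, were 58907, 26730, 26125 and 29108 in acLDL libraries 1 to 4 and 41697 to 66593 in controls. Here 3 markers had higher and 7 lower means with acLDL, and Adgre1, Ly6c2 and Cd14 were at 0 in acLDL libraries 2 and 3. In each of these lists the sums of acLDL libraries 2, 3 and 4 were below every control. The lists for lymphocytes, erythroid, mast and stromal cells had 1 to 3 tested genes each. The part of these cells in the results on splicing factors was not tested. In bulk RNA, fewer cells of a type and less RNA per cell cannot be told apart.

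No splicing factor gene passed the threshold in the comparison of acLDL with control, and each family held genes on both sides of 0. Of 49 members tested, 25 were higher and 24 lower on average under acLDL, with a median log2 fold change of 0.01 against -0.13 for all 10091 tested genes. At limma's adjusted p under 0.05, the number called was 0 of 49, against 0.0% of all tested genes. The smallest adjusted p was 0.298. An unadjusted p under 0.05 was found for 15 members (30.6%), against 16.4% of all tested genes. There was no overlap between the groups for 6 members that were higher with acLDL (12.2%, against 3.44% of all tested genes) and 1 that was lower (2.04%, against 2.2%). The other member, Sf3a2, did not reach a value of 10 in 4 libraries and was not tested: it was at 42.8, 0, 0 and 17.7 with acLDL and at 38.8, 0, 0 and 0 in controls.

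**Figure D1:**
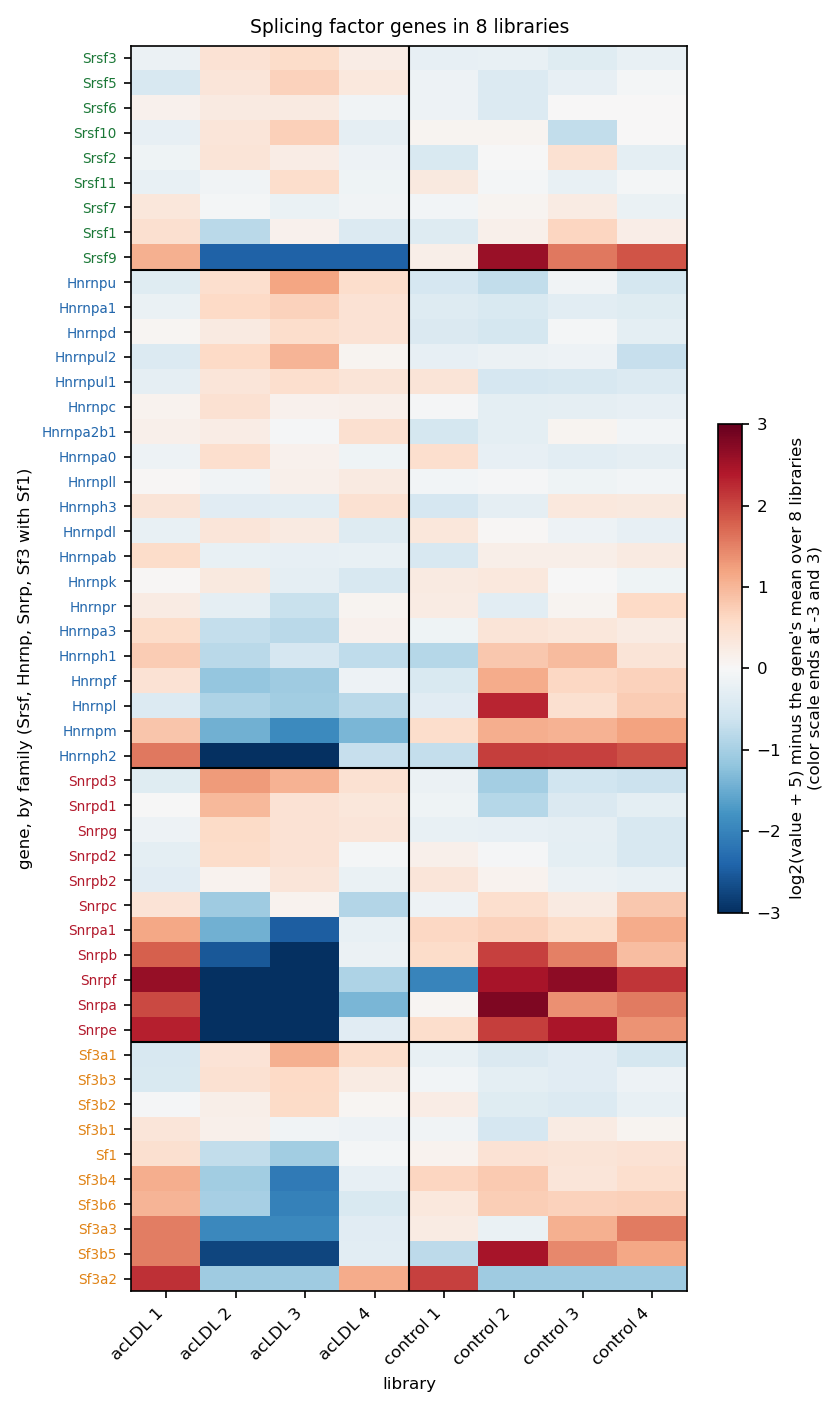
Each row is 1 of the 50 splicing factor genes and each column 1 library, with color for log2(value + 5) minus the gene's mean over the 8 libraries (scale ends at -3 and 3); genes are ordered by log2 fold change within a family, and Sf3a2, in the last row, was not tested. In acLDL libraries 2 and 3 the tested genes at the foot of the Hnrnp, Snrp and Sf3 blocks are deep blue. Sf3a2 is listed at 0 there and in controls 2, 3 and 4, and has the same color in all of them. Srsf9 is also blue in acLDL library 4, and acLDL library 1 is within the control range for 27 of the 49 tested genes.

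The 4 acLDL libraries did not behave alike. Over the 49 tested members, the value of acLDL library 1 fell inside the control range for 27, and acLDL libraries 2, 3 and 4 for 14, 12 and 19. The same counts over all tested genes are not reported here. The mean log2 deviation of all 10091 tested genes was 0.24, -0.32, -0.41 and -0.11 in acLDL libraries 1 to 4. These libraries thus differed across the whole table. Control library 1 was within the range of the other controls for 15 members, against 24 to 32 for the other control libraries. The range for a control rests on fewer libraries, so its counts cannot be set against those for acLDL. Without acLDL library 1, 24 members passed the threshold, 11 higher and 13 lower with acLDL, against 7.71% of 9476 tested genes called higher and 14.5% called lower. Of the families, 3 of 9 Srsf, 6 of 20 Hnrnp, 8 of 11 Snrp and 7 of 9 Sf3 and Sf1 members were then called, against 22.2% of all tested genes. Groups then did not overlap for 12 higher members (24.5%) and 11 lower ones (22.4%), against 14.8% and 19.0% of all tested genes. With libraries weighted by their fit to the group means, acLDL library 1 had the lowest weight (0.342), and 20 members were called, against 19.4% of all tested genes. They were 10 higher and 10 lower, against 6.49% and 12.9% of all tested genes. Without acLDL libraries 2 and 3, in contrast, 0 members passed and 1 of 49 (2.04%) had an unadjusted p under 0.05, against 2.88% of all tested genes. With the short-transcript index as a covariate 0 passed and 4 (8.16%) were under 0.05, against 4.99%. Every control had a higher index than acLDL libraries 2, 3 and 4, so the covariate and the group cannot be fully told apart.

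**Figure D2:**
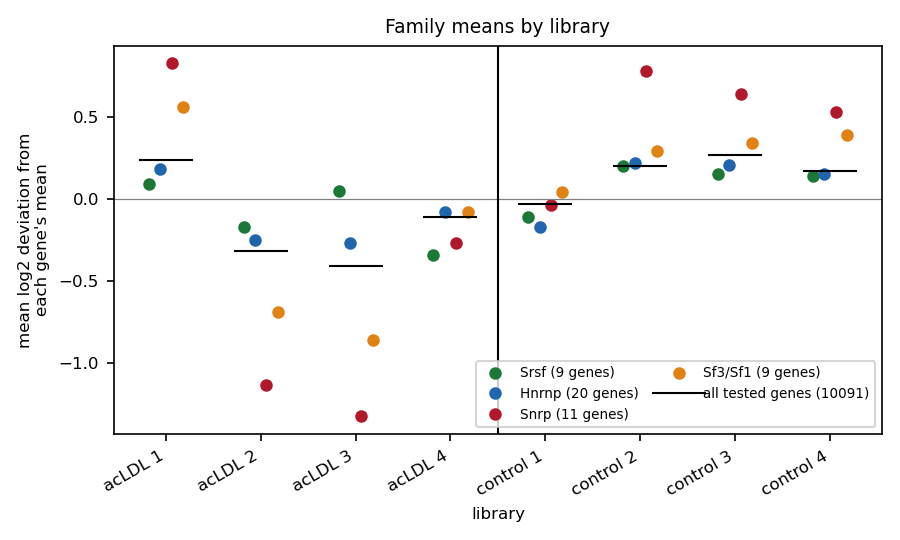
Points are the mean log2 deviation of each family's tested genes from their own means, per library, and black bars the same for all 10091 tested genes. The Snrp mean was lowest in acLDL libraries 2 and 3 (-1.14 and -1.33) and highest in acLDL library 1 (0.83), while the Srsf mean stayed between -0.34 and 0.2 in all libraries.

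Of the 9 SR protein genes tested, 6 were on average higher and 3 lower with acLDL, with a median log2 fold change of 0.16 and 0 past the threshold. Srsf3, a small SR protein that links splicing to mRNA export (chromosome 17, 29032628 to 29043373, plus strand, GRCm38), was at 1969, 3007, 3266 and 2588 in acLDL libraries 1 to 4 and at 1854, 1883, 1716 and 1909 in controls. Every acLDL library was above every control, with means of 2708 ± 566 (SD, n = 4) and 1841 ± 86.3 and a limma log2 fold change of 0.53 (SE 0.19, adjusted p = 0.298). Srsf9, an SR protein with a short RS domain (chromosome 5, 115327177 to 115333080, plus strand), was at 51.3, 0, 0 and 0 with acLDL and at 25.4, 158, 75.1 and 94.0 in controls. It was listed at 0 in acLDL libraries 2, 3 and 4, while acLDL library 1 lay inside the control range. Its fitted log2 fold change was -3.11 (SE 0.89, adjusted p = 0.298), a value that depends on the pseudocount.

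Srsf5, whose mRNA responds to growth signals, was at 1909.8, 3415, 4270.2 and 3304 with acLDL and at 2376, 1980.0, 2221 and 2559 in controls. Here acLDL library 1 was below every control and the other acLDL libraries were above every control (limma log2 fold change 0.44, SE 0.25, adjusted p = 0.327, with 0.68 without acLDL library 1 and 0.29 without acLDL library 3). For Srsf1, the founding SR protein, the acLDL mean was 89.5 ± 36.5 (SD, n = 4) and the control mean 108.5 ± 32. Srsf2, which binds exonic enhancers, averaged 268 ± 51.2 and 243 ± 72.4. Srsf7, a close relative of Srsf3, averaged 726 ± 130 and 732 ± 103. For these last genes the difference was smaller than the SD of either group. The remaining Srsf6, Srsf10 and Srsf11 had log2 fold changes between 0.04 and 0.28.

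Of the 20 hnRNP genes, 3 were higher and 1 was lower without overlap between the groups, against 3.44% and 2.2% of all tested genes. The family's median log2 fold change was 0.05, with 11 genes higher, 9 lower and 0 past the threshold. Hnrnpa1, an abundant repressor of exons (chromosome 15, 103240432 to 103246692, plus strand), was at 1255, 2180.5, 2335 and 1942 with acLDL and at 1109, 1046, 1154.5 and 1127.5 in controls. The controls lay close together, at 1109 ± 46.1 (SD, n = 4), below all acLDL libraries at 1928 ± 477 (limma log2 fold change 0.76, SE 0.22, adjusted p = 0.298). Hnrnpd, also called AUF1, binds AU-rich elements of unstable mRNAs (chromosome 5, 99955935 to 99978938, minus strand). It was at 764, 871.5, 1049 and 992 with acLDL and at 537, 503, 703 and 598 in controls, so the groups did not overlap (log2 fold change 0.65, SE 0.19, adjusted p = 0.298). Hnrnpc, which binds uridine tracts, was at 2795, 3582, 2840.3 and 2906 with acLDL and at 2520.4, 2128.5, 2152 and 2199.7 in controls. It too had no overlap, at a smaller log2 fold change of 0.42 (SE 0.16, adjusted p = 0.298).

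Hnrnpu, a chromatin-associated scaffold protein, was at 2087, 3846.5, 6137 and 3882 with acLDL and at 1891, 1616, 2519 and 1867 in controls. Only acLDL library 1 lay in the control range (limma log2 fold change 0.93, SE 0.31, adjusted p = 0.298). Hnrnpa2b1, which reads and sorts many mRNAs, averaged 7008 ± 1036 (SD, n = 4) and 5306 ± 962, with acLDL library 3 at 5901 inside the control range. Hnrnpll, known for splicing of the leukocyte phosphatase Cd45, averaged 1178 ± 129 and 1039 ± 30.1, and Hnrnpk 535 ± 126.5 and 612 ± 90.2; in both the groups overlapped.

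On the lower side, Hnrnpl, which also acts on Cd45 exons (chromosome 7, 28808541 to 28822266, plus strand), was at 43.9, 29.7, 26.8 and 32.6 with acLDL and at 46.7, 313, 86.8 and 105 in controls. The groups did not overlap, by a margin of 43.9 to 46.7, and control library 2 was far above the rest (limma log2 fold change -1.59, SE 0.52, adjusted p = 0.298). Hnrnpm, a splicing regulator of innate immune genes (chromosome 17, 33646233 to 33686860, minus strand), was at 406, 80.1, 56.3 and 84.1 with acLDL and at 325, 481, 468 and 529 in controls. In acLDL libraries 2, 3 and 4 it was below every control, and acLDL library 1 was within their range (log2 fold change -1.93, SE 0.54, adjusted p = 0.298). Its longest transcript shares 29.2% of its 31-base words with other genes, among them the neighbouring March2. Hnrnph2 and Hnrnpf, chosen after their values were seen, encode related proteins that bind G-rich RNA. Hnrnph2 was at 125, 0, 0 and 21.5 with acLDL and at 21.1, 176, 174 and 157 in controls, with acLDL library 4 and control library 1 at nearly the same level. Hnrnpf averaged 523 ± 283 (SD, n = 4) and 997 ± 390.1. The other 9 Hnrnp genes ranged in log2 fold change from -0.66 (Hnrnph1) to 0.64 (Hnrnpul2).

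**Figure D3:**
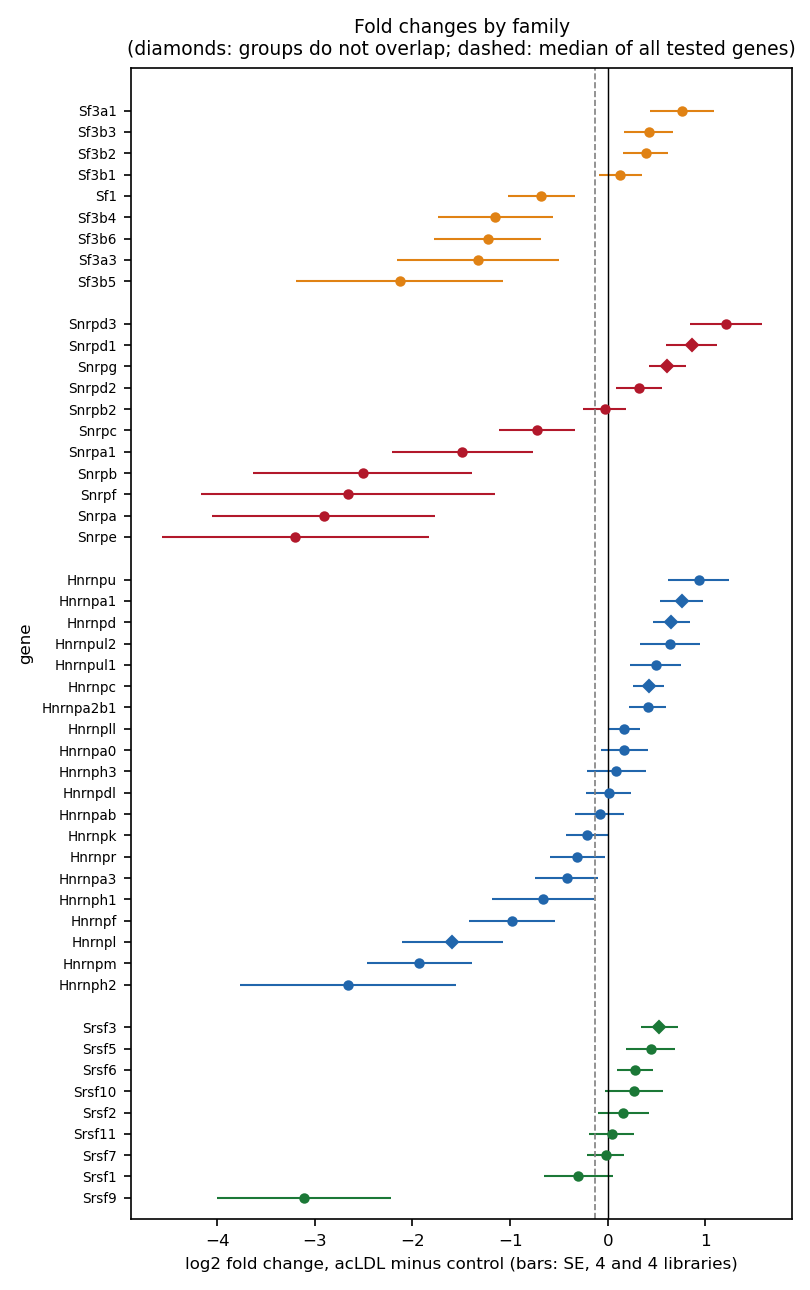
Points are log2 fold changes (acLDL minus control) of the 49 tested genes with their SE over 4 and 4 libraries, by family; diamonds are genes whose groups do not overlap, and the dashed line is the median of all tested genes at -0.13. Higher values reach 1.21 with narrow bars, and lower values reach -3.2 with wide bars.

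Snrp genes, those of the Sm ring among them, had mean differences of both signs. Of 11 Snrp genes tested, 4 were on average higher and 7 lower with acLDL, with a median of -0.72 and 0 past the threshold. With the short-transcript covariate the sign turned for the ring genes Snrpd2 (-0.05) and Snrpf (0.37). The 4 higher ones, Snrpd1, Snrpd2, Snrpd3 and Snrpg, encode Sm ring proteins, and so do Snrpb, Snrpe and Snrpf among the lower ones. Since genes of 1 ring differed in the sign of the mean difference, the regions before the RefSeq start of 4 of them are shown. These 4 genes, 2 lower (Snrpe, Snrpf) and 2 higher (Snrpg, Snrpd3), were chosen after their values were seen. A part of these regions in the differences was not tested. Each is the 250 bases before the RefSeq transcription start (GRCm38.p6), written 5′ to 3′ on the gene's strand. The RefSeq start differs from the outermost GENCODE start of the gene, so these regions reach into the GENCODE gene range: that of Snrpd3 lies wholly and that of Snrpg almost wholly inside it, and those of Snrpe and Snrpf by their last bases. Capitals mark matches, on either strand, to CCGGAAG (the ETS core), GGGCGG (the GC box), CCAAT (the CCAAT box) and the NRF1 motif, some of which overlap.
Snrpe, chr1:133610281-133610530, minus strand: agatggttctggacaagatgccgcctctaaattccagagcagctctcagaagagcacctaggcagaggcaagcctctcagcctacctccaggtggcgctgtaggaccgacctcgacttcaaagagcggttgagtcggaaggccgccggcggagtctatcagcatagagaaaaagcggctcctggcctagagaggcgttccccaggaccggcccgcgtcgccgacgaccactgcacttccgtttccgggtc
Snrpf, chr10:93589659-93589908, minus strand: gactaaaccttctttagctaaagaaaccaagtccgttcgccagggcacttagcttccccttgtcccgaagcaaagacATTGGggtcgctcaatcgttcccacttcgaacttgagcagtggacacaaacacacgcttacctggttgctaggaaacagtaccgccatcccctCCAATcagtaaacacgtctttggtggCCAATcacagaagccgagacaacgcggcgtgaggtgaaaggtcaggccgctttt
Snrpg, chr6:86371290-86371539, plus strand: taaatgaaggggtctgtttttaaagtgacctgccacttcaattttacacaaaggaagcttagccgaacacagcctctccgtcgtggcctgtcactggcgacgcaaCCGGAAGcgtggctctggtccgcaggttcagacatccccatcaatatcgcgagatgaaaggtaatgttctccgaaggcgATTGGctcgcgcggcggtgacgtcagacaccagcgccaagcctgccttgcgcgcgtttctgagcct
Snrpd3, chr10:75517792-75518041, plus strand: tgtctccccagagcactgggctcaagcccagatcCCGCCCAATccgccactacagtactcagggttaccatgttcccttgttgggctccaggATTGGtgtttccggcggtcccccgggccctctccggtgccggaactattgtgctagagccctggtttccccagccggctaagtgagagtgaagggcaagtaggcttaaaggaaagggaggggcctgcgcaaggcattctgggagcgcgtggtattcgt
Snrpe held none of the 4 motifs, Snrpf held 3 CCAAT boxes, Snrpg an ETS core with a CCAAT box, and Snrpd3 a GC box with 2 CCAAT boxes. Promoters of 44 members were found in RefSeq. The ETS core was in 14 of them (31.8%), against 14.7% of 8788 promoters of genes in the table and 7.05% of all 27025 promoters. It was in 7 of 22 members that were higher and in 6 of 21 that were lower with acLDL. The GC box was in 70.5% of member promoters against 57.7% of those in the table and 32.9% of all, the CCAAT box in 47.7% against 36.6% and 34.5%, and the NRF1 motif in 11.4% against 8.53% and 3.86%.

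Snrpd3 (chromosome 10, 75517551 to 75537381, plus strand) was at 209, 659, 554 and 373 in acLDL libraries 1 to 4 and at 238, 129, 177 and 170 in controls. Libraries 2, 3 and 4 with acLDL were above every control, and acLDL library 1 was inside the range (limma log2 fold change 1.21, SE 0.37, adjusted p = 0.298). Snrpd1 was at 1002, 2016, 1383 and 1280.3 with acLDL and at 925, 556, 756 and 829 in controls, with no overlap (log2 fold change 0.86, SE 0.26, adjusted p = 0.298). Snrpg (chromosome 6, 86371304 to 86379328, plus strand) was at 1502, 2468, 2258 and 2126 with acLDL and at 1412.5, 1403, 1377 and 1194 in controls. It also had no overlap, with means of 2088.5 ± 415 (SD, n = 4) and 1347 ± 103 and a log2 fold change of 0.61 (SE 0.19, adjusted p = 0.298). Snrpd2, chosen after its values were seen, averaged 1546 ± 420.1 and 1218 ± 236.5, and the groups overlapped.

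Snrpe (chromosome 1, 133603871 to 133610291, minus strand) was at 451, 0, 0 and 66.3 with acLDL and at 126, 375, 492 and 227 in controls. Snrpf (chromosome 10, 93583029 to 93589706, minus strand) was at 812, 6.55, 7.09 and 65.3 with acLDL and at 28.9, 740.4, 859 and 588 in controls. Snrpb, which gives the B proteins of the ring, was at 288, 9.57, 0 and 70.3 with acLDL and at 118, 348, 235 and 155 in controls. All 3 were near or at 0 in acLDL libraries 2 and 3, while acLDL library 1 was as high as the higher controls, and Snrpf was low in control library 1 as well. Over the whole table, 2178 and 2574 genes were listed at 0 in acLDL libraries 2 and 3. The log2 fold change of Snrpb was -2.51 and, without acLDL library 3, -1.56. Snrpe and Snrpf were chosen after their values were seen. Averaged over these 3 genes, the log2 deviation was 2.24 in acLDL library 1, -3.42 and -3.91 in acLDL libraries 2 and 3, and -0.48 in acLDL library 4, against -0.31 to 2.21 in controls. For the 4 higher ring genes it was -0.21, 0.85, 0.59 and 0.28 with acLDL, against -0.54 to -0.1 in controls. Both sets were formed by the sign of their genes' own difference between the groups. That their averages differ in opposite directions therefore follows from the choice.

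**Figure D4:**
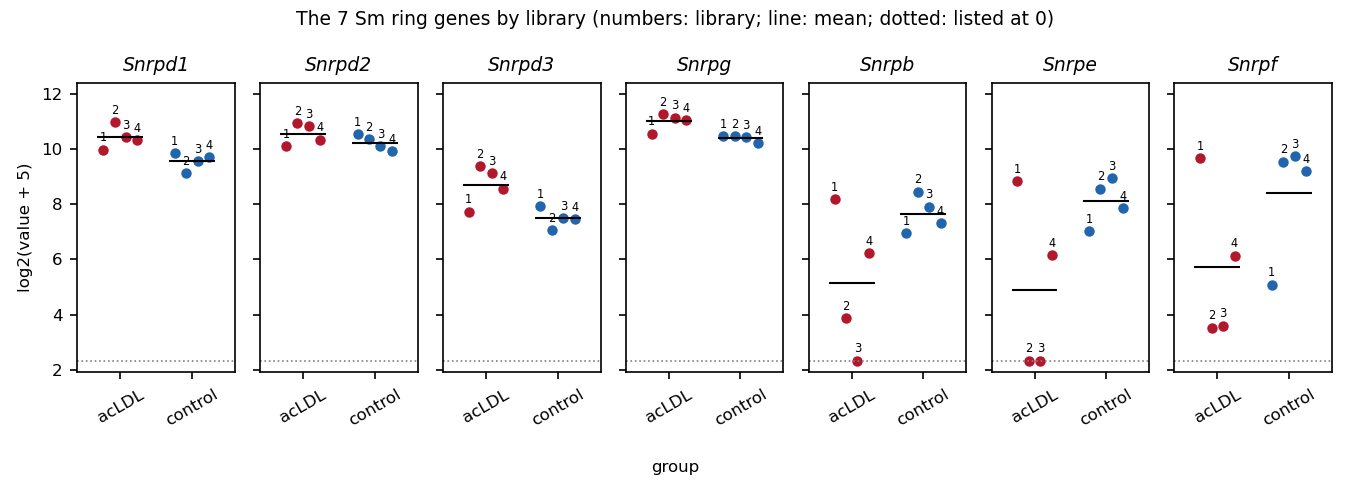
Each panel is 1 of the 7 Sm ring genes, with log2(value + 5) on the y axis, 1 numbered point per library, a line at the group mean and a dotted line where a gene is listed at 0. Snrpd1 and Snrpg have no overlap between groups, whereas in Snrpb, Snrpe and Snrpf acLDL libraries 2 and 3 lie near the dotted line and acLDL library 1 lies among the controls.

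Among the snRNP-specific proteins, Snrpa, a U1-specific protein that binds the U1 RNA, was at 179, 0, 0 and 13.0 with acLDL and at 43.2, 320.0, 116 and 133 in controls. Its fitted limma log2 fold change was -2.91 (SE 1.14, adjusted p = 0.298), and acLDL library 1 was above 3 of the 4 controls. Snrpc, another U1-specific protein, averaged 86.0 ± 43.8 (SD, n = 4) and 135 ± 38.1. Of the U2 pair, Snrpa1 averaged 20.5 ± 26.1 and 42.3 ± 8.67, and Snrpb2 averaged 641 ± 141 and 654 ± 129. Snrpa1 was at 57.7, 5.26, 0 and 19.1 with acLDL and at 35.9 to 55.0 in controls. In acLDL library 1 it was thus above every control. Snrpc, Snrpa1 and Snrpb2 were chosen after their values were seen, and none of these genes had groups apart. Snrpn was not analysed here.

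Genes of branch site recognition also had mean differences of both signs. Of 9 tested, 4 were on average higher and 5 lower with acLDL (median -0.68), with 0 past the threshold and no member without overlap. Sf3a1, the large subunit of SF3a (chromosome 11, 4160350 to 4182541, plus strand), was at 97.2, 184, 293 and 201 with acLDL and at 117, 101, 108 and 93.5 in controls. The controls lay within 93.5 to 117, acLDL library 1 among them and the other acLDL libraries above (limma log2 fold change 0.76, SE 0.33, adjusted p = 0.298). Sf3b3, a scaffold subunit of SF3b chosen after its values were seen, averaged 579 ± 167 (SD, n = 4) and 416 ± 36.6. It was at 348.8 in acLDL library 1, below every control (377.7 to 456.9), and above every control in the other acLDL libraries. Sf3b1, the subunit that clamps the branch site helix and is often mutated in myeloid neoplasms, averaged 837 ± 140.5 and 769 ± 164, a difference smaller than either SD.

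Sf3b6, which contacts the branch site adenosine (chromosome 12, 4817544 to 4827659, plus strand), was at 361.5, 86.1, 39.9 and 128 with acLDL and at 222, 297, 287 and 295 in controls. acLDL library 1 was above every control and the other acLDL libraries below every control (limma log2 fold change -1.23, SE 0.55, adjusted p = 0.298, and -0.76 without acLDL library 3). Sf3b4, chosen after its values were seen, had the same pattern, at 456, 99.8, 44.5 and 176.5 with acLDL and 273 to 364 in controls. It shares 55% of its 31-base words with other annotated genes. Sf3b5, a small subunit, was at 92.5, 0, 0 and 22.0 with acLDL and at 14.4, 179.9, 86.3 and 69.6 in controls. Sf3a3, chosen after its values were seen, averaged 15.2 ± 24.2 (SD, n = 4) and 28.7 ± 17.8. Sf1, the first branch site binding protein, was at 210, 86.9, 69.9 and 143 with acLDL and at 160.5, 203, 196 and 203 in controls (log2 fold change -0.68, SE 0.34, adjusted p = 0.303, and -0.45 without acLDL library 3).

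Nearly every member with a short 3′ untranslated region (UTR), a feature that the choice by symbol did not use, was lower on average with acLDL. Of 13 tested members whose longest coding transcript has a 3′ UTR under 500 nt, 12 had a lower mean with acLDL, and the exception was Snrpd1. Of the 36 with 500 nt or more, 12 were lower and 24 higher. The medians were -1.93 and 0.17. Over all tested genes with an annotated length the same split gave 76.2% lower with a median of -0.99 (2102 genes) against 50.9% and -0.02 (6885 genes), so the direction is shared with the whole table. Across the 49 members, Spearman's rho between log2 fold change and 3′ UTR length was 0.55, against 0.34 over 8987 tested genes. With the whole transcript length it was 0.29 against 0.28, and with GC content -0.17 against -0.13. These are descriptions across genes that share libraries and are not independent. The limit of 500 nt was set after the values were seen. The median 3′ UTR was 364 nt for Snrp, 543 nt for Sf3 and Sf1, 1194 nt for Hnrnp and 1539 nt for Srsf genes, and 7 of 11 Snrp genes were under the limit, against 1 of 9 Srsf genes. Of the 24 members called without acLDL library 1, 10 of the 13 lower ones and 1 of the 11 higher ones had a 3′ UTR under 500 nt. Over all tested genes with an annotated length, 671 genes under 500 nt and 604 others were then called lower, and 81 and 566 called higher.

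**Figure D5:**
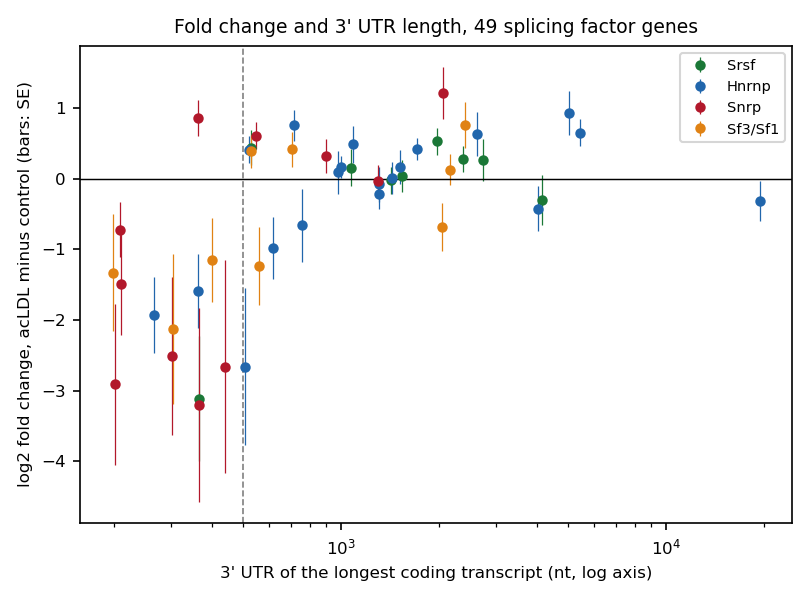
Points are the 49 tested genes, colored by family, with 3′ UTR length of the longest coding transcript on a log x axis and log2 fold change with its SE on the y axis; the dashed line is at 500 nt. To the left of the line 12 of 13 genes are below 0, and to the right 24 of 36 are above 0.

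Of the 50, 15 share more than 20% of the 31-base words of their longest transcript with other annotated genes, and 12 share none. Values of Hnrnpa1 (48.3%), Hnrnpf (50.2%), Hnrnpk (39.6%), Srsf3 (37.6%), Srsf5 (36%) and Snrpa (38%) are uncertain for this reason, since reads from shared sequence can be divided between genes. The same holds for Snrpc (29.5%), Snrpe (26.8%), Snrpf (23.1%), Snrpd1 (22.7%), Hnrnpa3 (28.9%), Hnrnph2 (24.6%) and Hnrnpc (20.8%). It also holds for Hnrnpm and Sf3b4, whose shares are given above. Hnrnpu, Hnrnpll, Sf3b1, Sf3b3, Sf1, Srsf1, Srsf2 and Srsf9 share none, and Hnrnpd shares 0.934%.

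Companion genes of the pathway were taken in 7 lists chosen by function. Of 149 tested, 59 were on average higher and 90 lower with acLDL, with a median of -0.23 and 0 past the threshold. Groups did not overlap for 8 higher (5.37%) and 4 lower (2.68%), against 3.44% and 2.2% of all tested genes. The list of splicing regulators outside the 4 families had 15 of 36 genes higher (median -0.22). Partners of SF1 and SF3 had 7 of 14 genes higher (median 0.02), with the SF3b subunit gene Phf5a at 1074 ± 548 (SD, n = 4) and 465 ± 85.5. Other snRNP proteins had 8 of 27 higher (median -0.55), with the tri-snRNP helicase gene Ddx23 at 15.3 ± 17.0 and 160.3 ± 129. The U1 gene Snrnp70 was at 40.5 ± 25.0 and 68.9 ± 13.0.

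The catalytic spliceosome list had 9 of 23 genes higher (median -0.38). In it Dhx38, a helicase that acts after the first catalytic step, was at 35.5, 11.7, 14.4 and 11.0 with acLDL and at 98.4, 77.8, 54.3 and 59.5 in controls, with no overlap (limma log2 fold change -1.82, SE 0.40, adjusted p = 0.298). Genes that assemble snRNPs had 7 of 14 higher (median 0.12), with the export adaptor gene Phax at 593 ± 175 (SD, n = 4) and 374 ± 87.6. Genes that modify or carry SR proteins had 9 of 20 higher (median -0.06), with the SR protein kinase gene Srpk2 at 276 ± 52.5 and 158 ± 41.1. Exon junction and nonsense-mediated decay genes had 4 of 15 higher (median -0.75). Without acLDL library 1, 15 companion genes were called higher and 22 lower, against 7.71% and 14.5% of all tested genes.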

How the data were processed

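The labels' protocols name RNeasy columns for RNA and a Lexogen QuantSeq V2 kit, a 3′ method, whereas the design text speaks of 5′ quantification. The submitters' processing notes list bcl2fastq 2.20, kallisto without a version, and the mm10 build. Annotation, filters and the normalization tool: not given in the sources used here. Each deposited value is a normalized signal per gene symbol and library, not a whole count, so depth per library is unknown and no counting interval was computed.

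Tests covered the 10091 of 11756 genes that reached 10 in 4 or more libraries. They were run with limma 3.58.1 in R 4.3.3 on log2(value + 5), with a variance trend, robust moderation and the group as the only term. The Benjamini-Hochberg adjustment ran over all tested genes, and the threshold was 0.05. Log2 fold changes are on that scale, acLDL minus control, and understate the change of low genes. The fit was tested on simulated data with known changes. Each gene was drawn there with independent noise, without differences that span a library. The simulation therefore cannot show how the fit behaves with the library differences described above. Transcript features and gene coordinates came from GENCODE mouse release M21 (GRCm38), whose symbols matched 96.6% of genes and all 50 members, and promoters from RefSeq (GRCm38.p6). The first listed start of each gene was used.

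Members, gene lists and tests were chosen with earlier results of these data known. Genes named are the 3 with the smallest p in each family, those without overlap between groups, 20 picked for known roles, and the smallest p of each companion list, which for 2 lists is not reported here; others are said to be chosen after their values were seen. The replicate numbers were checked as pairs: the correlation of deviations between same-numbered libraries ran from -0.553 to 0.0341. Differences that span a whole library enter this correlation. It therefore cannot tell whether same-numbered libraries share an animal or a culture. The 18 alternatives were other scalings, filters and pseudocounts, a replicate block, a short-transcript covariate, library weights and leaving out libraries. Calculations also used Python 3.11.15.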

Additional observations from a re-analysis of the deposited data

Results flagged for a closer look

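In the 36 members named with values, 72 groups of 4 libraries were checked for 1 library far from the other 3 (a gap to the next library, over the range, above Dixon's critical value), and 9 were found; chance gives about 1 in 20 independent groups, a rate that does not carry over to genes partly chosen on these values and sharing libraries. In 5 of the 9, acLDL library 1 was the high one. Hnrnpm was at 405.9 there, against 56.3 to 84.1 in the other acLDL libraries. Snrpa was at 179.2 against 0 to 13.0, Snrpe at 451 against 0 to 66.3, and Snrpf at 811.5 against 6.55 to 65.3. Srsf9 was at 51.3 and listed at 0 in the other acLDL libraries. Control library 1 was low for Hnrnph2, at 21.1 against 157.3 to 176.2 in the other controls, and for Sf3b6, at 222.3 against 287.2 to 297.1. Of the remaining 2, Hnrnpc was high in acLDL library 2, at 3582.3 against 2794.7 to 2906, and Snrpg was low in control library 4, at 1194.1 against 1376.9 to 1412.5.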

How the results depend on the processing

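The count of 0 genes past the threshold became 1 under quantile normalization and 1957 with array weights, and ran from 0 to 2102 over the fits that leave out 1 library, the highest without acLDL library 1. For the splicing factor genes, 0 became 20 with array weights and ran from 0 to 24, again highest without acLDL library 1. The 7 members without overlap ran from 7 to 23 over the same fits, with 23 without acLDL library 1 and 15 without control library 1. Without acLDL library 1 the shares were 24.5% higher and 22.4% lower, against 14.8% and 19.0% of all tested genes. Without control library 1 the share of all tested genes is not reported here. Leaving out a library cannot end a lack of overlap, so such counts tend to rise for any genes. Medians by family moved with the filter and the libraries. With a value of at least 10 required in all libraries, the Snrp median went to 0.47 and the Sf3 and Sf1 median to 0.13. This filter dropped Snrpa, Snrpa1, Snrpb, Snrpe, Snrpf, Sf3a3 and Sf3b5, all lower on average with acLDL and under 10 in acLDL library 3. The log2 fold changes of the members kept stayed as they were, so the rise of these medians follows from the filter. Without acLDL libraries 2 and 3 the Srsf median was -0.06 and the Sf3 and Sf1 median -0.06, and with the short-transcript covariate the latter was 0.03. The Snrp median was -0.28 and -0.09 in these fits, Snrpe -0.61 and -0.27, and Snrpa -1.14 and -0.6. In single genes the sign turned with the short-transcript covariate for Sf3a3 (0.13), Sf3b3 (-0.01), Sf3b4 (0.03), Snrpd2 (-0.05), Snrpf (0.37), Srsf1 (0.02) and Srsf7 (0.2), with array weights for Sf3b1 (-0.07), Snrpb2 (0.02) and Srsf2 (-0.07), and without acLDL libraries 2 and 3 for Snrpd2 (-0.01), Srsf2 (-0.06) and Srsf7 (0.11). Over the fits that leave out 1 library, Sf3b1 ran from -0.01 to 0.24, Snrpb2 from -0.16 to 0.08 and Srsf7 from -0.13 to 0.06. Without acLDL library 3, Sf3b4 went from -1.15 to -0.63, Snrpa1 from -1.49 to -0.91 and the Sf3 and Sf1 median from -0.68 to -0.45, and without acLDL library 1 Sf3a3 went from -1.33 to -2.07 and Sf3b3 from 0.42 to 0.65. The cause was not tested. The fit with the replicate block called 0 members and 0 genes. Each replicate number holds 1 library of each group, so this block leaves every log2 fold change as it was and cannot test its sign. Quantile normalization moved the median of all tested genes from -0.13 to 0.15, and no named gene changed sign. Depth is unknown, and values near 5 cannot be told from 0.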
